A study of Mus musculus with 6 samples.

Results

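The Hox genes of the mouse are the homeobox genes of the Hoxa, Hoxb, Hoxc and Hoxd clusters. They were taken here by symbol, as Hoxa, Hoxb, Hoxc or Hoxd followed by a number, which gave 39 genes among the 25528 in each count table. The Hoxa cluster on chromosome 6 held 11 of them, the Hoxb cluster on chromosome 11 held 10, the Hoxc cluster on chromosome 15 held 9 and the Hoxd cluster on chromosome 2 held 9. The libraries were made from polyadenylated RNA of mouse stomach corpus organoids, epithelial cultures of the acid-secreting body of the stomach grown in 3 dimensions. Of the 6 libraries, 3 came from organoids transduced to overexpress Erbb2 (Erbb2_OE_Corpus), and 3 came from control organoids that carried an empty vector (Ctrl_Corpus), so that the cells of both groups had been transduced. The promoter of the construct, the species of its Erbb2 sequence, the number of animals or clones and their age and strain are not given in the labels, and the labels do not say whether replicates of a group came from separate cultures.

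Hox genes encode homeodomain transcription factors that give cells their position along the head-to-tail axis. Genes with low numbers lie at the 3′ end of a cluster and act towards the head, and genes with high numbers lie at the 5′ end and act towards the tail. Their proteins bind DNA together with cofactors of the PBX, MEIS and PKNOX families. In the embryonic gut Hox genes are used above all by the mesenchyme around the epithelium, and Polycomb complexes keep the clusters shut in cells that do not use them. Retinoic acid and the CDX factors are known activators of Hox genes in the embryo.

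None of the 39 Hox genes was detected, where detection meant at least 1 CPM (read counts expressed per scaled library size) in at least 3 of the 6 libraries. By the same measure 46.7% of all genes in the tables were detected. Of the 38 genes described one by one here, 36 had 0 counts in every library, which held for 34.9% of all genes in the tables. Over these 38 genes and 6 libraries 225 values were 0 and 3 were above it. They had 2, 1 and 0 counts in Erbb2-overexpressing replicates 1, 2 and 3, against 0, 3 and 0 counts in control replicates 1, 2 and 3. These 6 counts fell on Hoxa4 and Hoxa5, and the Hoxb, Hoxc and Hoxd clusters had none.

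**Figure D1:**
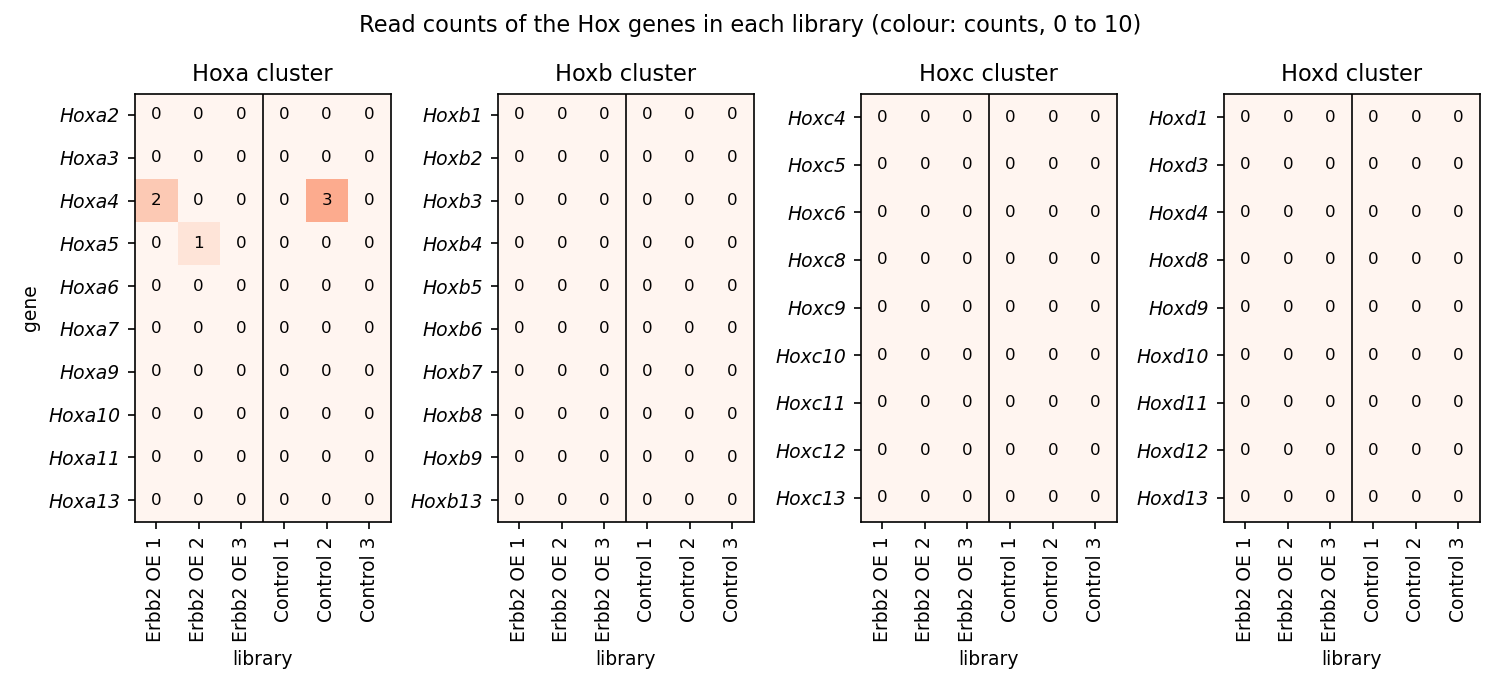
Read counts of each of 38 Hox genes (rows, by cluster) in each library (columns), with the Erbb2-overexpressing libraries (Erbb2 OE) left of the line and the controls right of it; the number in a tile is the count and the colour follows it. The tiles above 0 are those of Hoxa4 and Hoxa5, and the highest count is 3.

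Hoxa4, a neighbour of Hoxa5 in the cluster, had 2, 0 and 0 counts in Erbb2-overexpressing replicates 1, 2 and 3, against 0, 3 and 0 counts in control replicates 1, 2 and 3. In CPM the values above 0 were 0.0872 in overexpressing replicate 1 and 0.169 in control replicate 2, which was the nearest of the 38 genes to the detection limit. The groups overlapped at 0. A count of 0 allows up to 3 counts, which came to between 0.125 and 0.170 CPM in the 3 overexpressing libraries and between 0.129 and 0.169 CPM in the controls, and covers counting error alone. Both groups were at or below this limit for Hoxa4, so that no fold change is given. Hoxa5, which in the mouse embryo acts from the mesenchyme on the regional identity of the stomach, had 0, 1 and 0 counts in the overexpressing libraries and 0 counts in each control. Its level of 0.0566 CPM in overexpressing replicate 2 was the lowest value above 0 among them.

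Too few counts were present for any Hox gene to enter the comparison of both groups. The test over all genes (edgeR without a block for the replicate number) covered 12593 genes after genes with low counts were removed, and 0 of the 39 Hox genes were among them. It called 0 genes in all (0%), although 419 had a p under 0.05 before adjustment. DESeq2 called 34 genes in the same libraries and limma voom 0. When the fit took the replicate number as a block, it called 389 genes, which is 3.09% of those tested, 2.37% as higher in the overexpressing organoids and 0.723% as lower. With no filter on low counts 16618 genes were tested, Hoxa4 and Hoxa5 among them, and 0 Hox genes were called. The adjusted p of Hoxa4 was 0.995 without the block and 0.941 with it (edgeR), and that of Hoxa5 was 0.979 without the block and 0.815 with it. A level below these limits, or a difference at such a level, was not detectable at this depth.

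In the Hoxa cluster Hoxa2, Hoxa3, Hoxa6, Hoxa7, Hoxa9, Hoxa10, Hoxa11 and Hoxa13, had 0 counts in all 6 libraries. Among them are Hoxa10 and Hoxa11, which pattern the uterus, and Hoxa13, which patterns the hindgut and the digits. The same held for the Hoxb cluster, with Hoxb1, Hoxb2, Hoxb3, Hoxb4, Hoxb5, Hoxb6, Hoxb7, Hoxb8, Hoxb9 and Hoxb13. Hoxb1 acts in the hindbrain, Hoxb4 in blood stem cells, and Hoxb13 in the prostate and the tail end of the body. In the Hoxc cluster Hoxc4, Hoxc5, Hoxc6, Hoxc8, Hoxc9, Hoxc10, Hoxc11, Hoxc12 and Hoxc13 had no count; Hoxc13 is known for its role in hair and nails. In the Hoxd cluster Hoxd1, Hoxd3, Hoxd4, Hoxd8, Hoxd9, Hoxd10, Hoxd11, Hoxd12 and Hoxd13 had no count; the genes at its 5′ end, among them Hoxd13, pattern the limbs. No paralogue group was detected in any cluster, from the 3′ genes of group 1 to the 5′ genes of group 13. Per kilobase of exon, a count of 0 allowed between 0.0282 CPM for the longest Hox gene, Hoxa3 with 6014 bases, and 0.194 CPM for the shortest, Hoxa6 with 874 bases, in the library with the lowest scaled size.

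Whether reads of these genes could have been counted was read from the GENCODE M21 annotation, which is of an earlier assembly than the tables. The exons of 23 Hox genes overlapped no exon of another annotated gene, and those of 34 overlapped none of a gene in the tables. Overlap was largest for Hoxd3, where other genes covered 62.8% of the exon bases, followed by Hoxb3 with 52.9% and Hoxd4 with 52.3%. Hoxa11 with 34.98%, Hoxb2 with 27.3% and Hoxa3 with 27.1% were the other genes above 25%. For these 6 genes reads can be withheld or split in counting, and their zeros say less. Stretches of 50 bases shared with another gene of the tables made up at most 11.3% of the transcript sequence of a Hox gene, in Hoxd4. With any annotated gene the shared part was larger, at 60.3% in Hoxd3, 51.4% in Hoxb3 and 46.8% in Hoxd4. A total of 17 Hox genes had neither an overlap nor a shared stretch of 50 bases. These were Hoxa5, Hoxa10 and Hoxa13, 4 Hoxb genes (Hoxb1, Hoxb7, Hoxb8 and Hoxb13), 5 Hoxc genes (Hoxc4, Hoxc6, Hoxc11, Hoxc12 and Hoxc13) and 5 Hoxd genes (Hoxd1, Hoxd8, Hoxd9, Hoxd12 and Hoxd13). Of these, 16 had 0 counts in every library, and Hoxa5 held the 1 count among them.

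Genes on either side of each cluster were counted in every library. Among the 8 nearest genes of the tables on each side of the 4 clusters, 64 in all, 43 were detected (67.2%), and all 43 were among the 56 that code for protein. The Hoxa genes lay between Skap2, an adaptor protein gene, and Hibadh, an enzyme gene of valine breakdown. Skap2 had 64.6, 72.8 and 72.9 CPM in Erbb2-overexpressing replicates 1, 2 and 3, against 81.7, 90.4 and 72.0 CPM in control replicates 1, 2 and 3. Hibadh had 42.4, 53.4 and 48.8 CPM in the overexpressing libraries, against 36.8, 49.1 and 45.1 CPM in the controls. Values of the groups overlapped for both genes, and each library gave a level far above those of the Hox genes between them. Evx1, a homeobox gene next to Hoxa13 that is not counted among the 39, had 0, 0 and 1 counts in the overexpressing libraries and 0, 0 and 2 in the controls, and Evx2 next to Hoxd13 had 0 in all 6.

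The other clusters also lay between detected genes. On the side of Hoxb13 the stretch without detected genes also took in Ttll6, with at most 0.541 CPM in any overexpressing library and 0.301 CPM in any control, and Calcoco2 with no count, and then reached Atp5g1 at 12.7 to 19.9 CPM. On the side of Hoxb1 it took in Skap1, a gene of T cells with no count here, and reached Snx11 at 7.61 to 12.1 CPM. The Hoxc genes lay between Calcoco1, at 72.0 to 83.9 CPM over the 6 libraries, and Smug1, a DNA repair gene at 12.1 to 15.7 CPM. The Hoxd genes lay between Lnpk, at 12.3 to 16.9 CPM, and Mtx2, at 21.9 to 26.9 CPM. Both genes of the tables that lie inside a cluster and are not Hox genes, 5730596B20Rik and 9530018H14Rik in Hoxa, had 0 counts. A list of 23 other transcripts of the clusters held antisense and long noncoding transcripts and miRNAs beside Evx1 and Evx2. By symbol only 2 of the 23, Evx1 and Evx2, were found in the tables, and the rest could not be analysed. Of the 15 tested genes in a list of genes that flank the clusters, 0 were called with or without the block, and the median of their log2 fold changes in the blocked fit was -0.07, against -0.01 over all tested genes. Those with the smallest p with the block were Hnrnpa3 at -0.24, Skap2 at -0.21, Atp5g3 at -0.20 and Cbx5 at -0.16 on the log2 scale; their edgeR adjusted p ran from 0.129 for Hnrnpa3 to 0.299 for Cbx5. Without replicate 3 the adjusted p of Skap2 was 0.0218. Hnrnpa2b1, among the 8 genes beside the Hoxa cluster but not in this list, is named because it was called with the block. Its log2 fold change was -0.32, with an edgeR adjusted p of 0.0482 with the block and 0.9997 without it. In the blocked fit the adjusted p was 0.259 without replicate 1 and 0.189 without replicate 2.

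**Figure D2:**
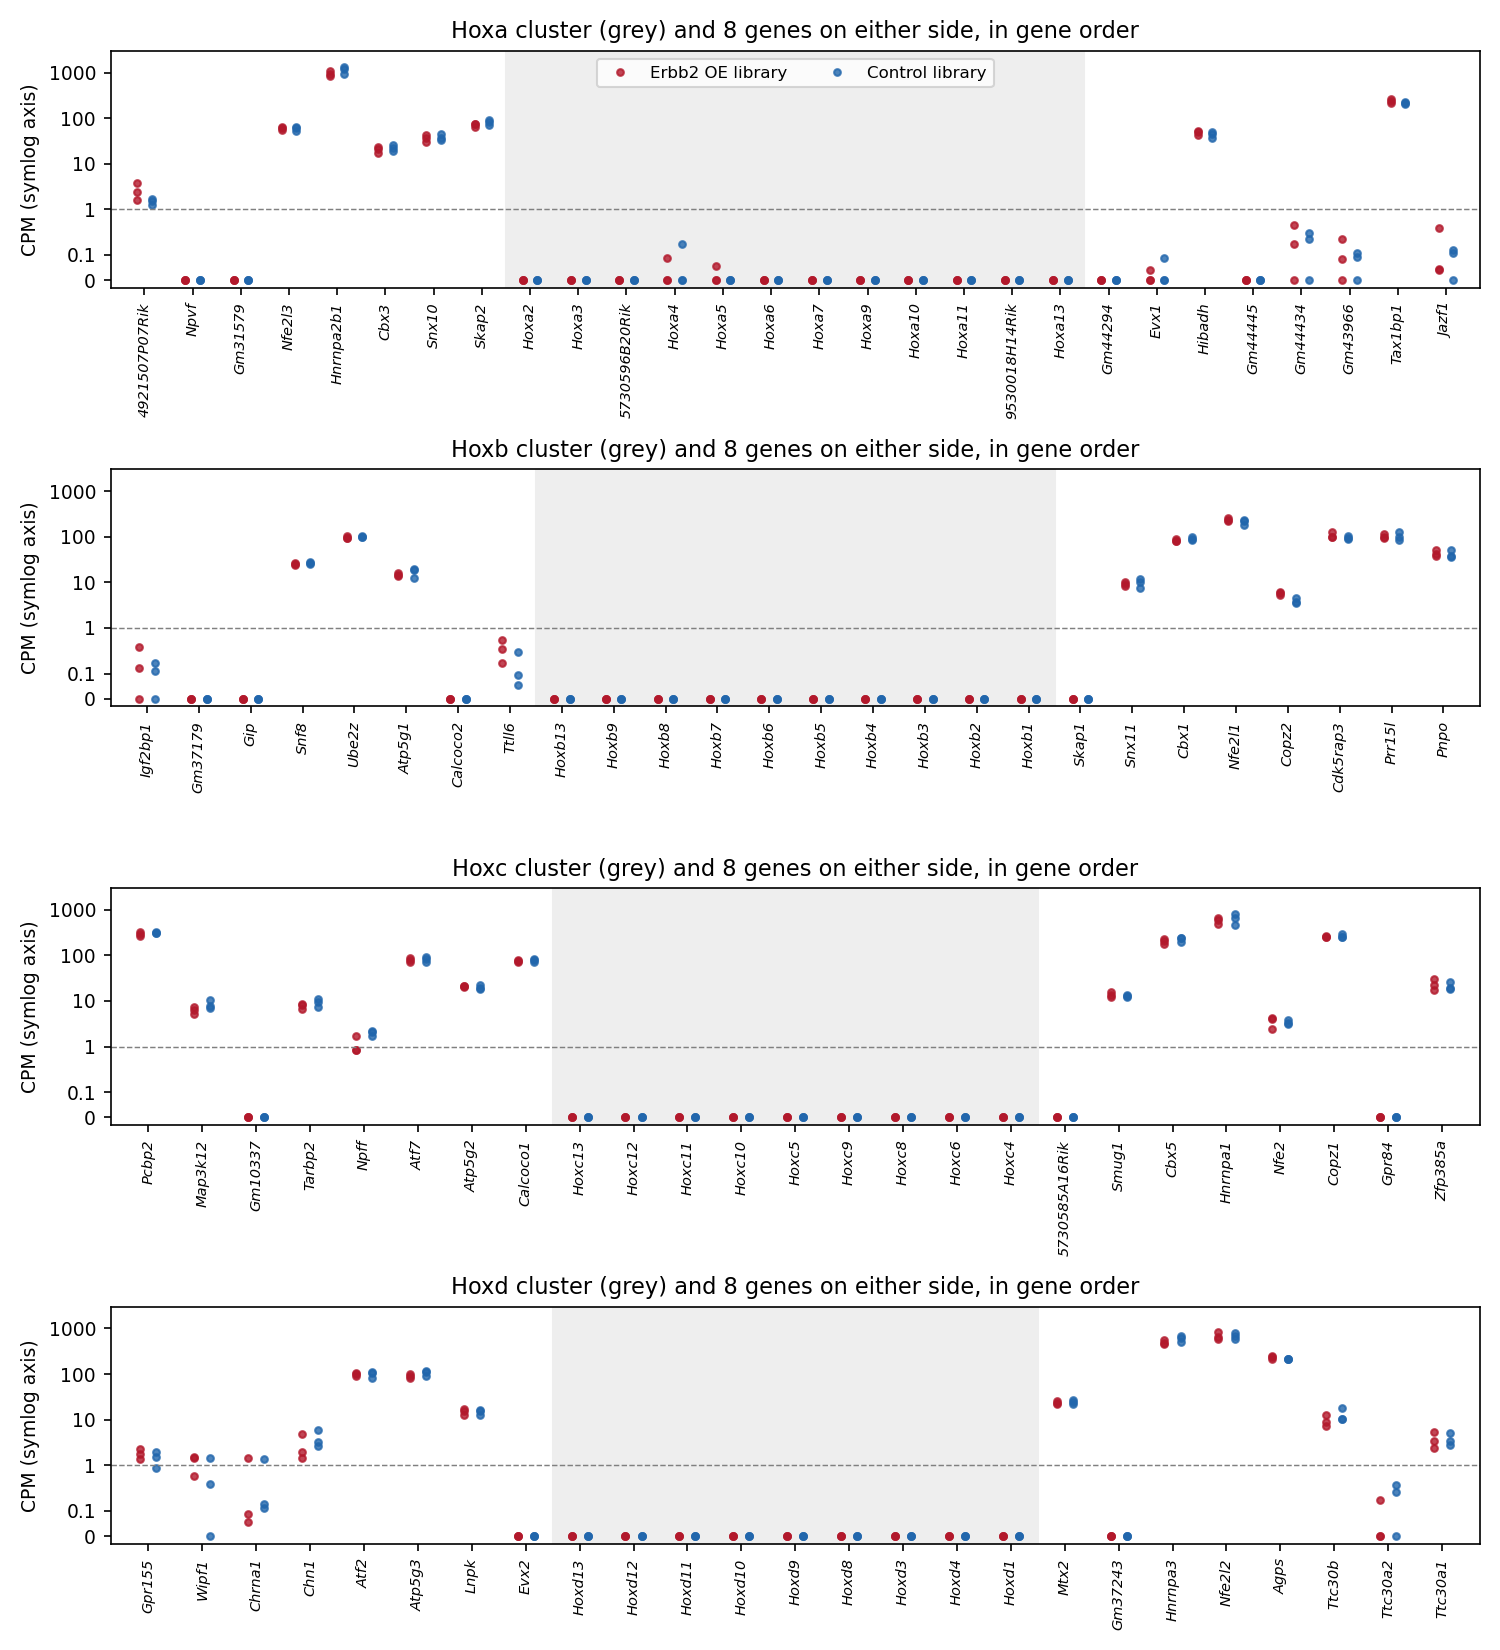
CPM of each library (points, symlog axis; red for Erbb2-overexpressing on the left of each gene, blue for controls on its right) for each Hox cluster on grey and the 8 genes of the tables on either side, in the order of the annotation; the dashed line is 1 CPM. Every Hox point shown lies below 1 CPM and all but 3 lie at 0, while 43 of the 64 neighbours were detected.

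Windows at the starts of the Hox genes are shown because CpG-rich windows went with detected transcripts among other genes. They run from 250 bases before to 50 bases after a start, in RefSeq on GRCm38.p6, and 22 of the 39 Hox genes had at least 1 such window. One gene per cluster is printed, with paralogue group 4 or the next higher number that had a window, 5′ to 3′ on the strand of the gene and with CpG dinucleotides in capitals. Hoxa5 (chr6:52204538-52204837, minus strand) held 29 CpG, Hoxb4 (chr11:96318017-96318316, plus strand) held 14, Hoxc4 (chr15:103034145-103034444, plus strand) held 9 and Hoxd4 (chr2:74721728-74722027, plus strand) held 4.
Hoxa5: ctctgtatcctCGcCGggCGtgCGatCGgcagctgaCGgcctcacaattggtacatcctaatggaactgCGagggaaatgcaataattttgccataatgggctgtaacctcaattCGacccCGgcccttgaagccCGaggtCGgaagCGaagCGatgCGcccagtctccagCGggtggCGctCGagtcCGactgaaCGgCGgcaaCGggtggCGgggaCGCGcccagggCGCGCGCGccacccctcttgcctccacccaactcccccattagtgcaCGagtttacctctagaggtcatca
Hoxb4: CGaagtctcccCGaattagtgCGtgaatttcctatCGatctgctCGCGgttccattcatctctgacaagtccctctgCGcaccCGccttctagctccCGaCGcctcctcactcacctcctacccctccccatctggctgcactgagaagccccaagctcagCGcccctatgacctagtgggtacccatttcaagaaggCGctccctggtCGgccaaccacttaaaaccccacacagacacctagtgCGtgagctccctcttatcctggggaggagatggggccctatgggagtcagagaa
Hoxc4: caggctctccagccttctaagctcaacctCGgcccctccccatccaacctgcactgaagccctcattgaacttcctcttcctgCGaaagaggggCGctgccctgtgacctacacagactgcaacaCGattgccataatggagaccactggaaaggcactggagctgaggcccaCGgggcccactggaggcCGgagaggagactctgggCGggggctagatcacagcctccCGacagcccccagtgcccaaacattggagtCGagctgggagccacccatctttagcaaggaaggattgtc
Hoxd4: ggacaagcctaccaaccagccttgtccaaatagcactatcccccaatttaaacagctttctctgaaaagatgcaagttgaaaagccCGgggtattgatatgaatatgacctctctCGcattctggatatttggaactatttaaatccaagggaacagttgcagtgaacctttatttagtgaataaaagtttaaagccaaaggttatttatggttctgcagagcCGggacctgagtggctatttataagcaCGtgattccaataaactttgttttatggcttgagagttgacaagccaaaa

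The windows of Hox genes ranged from 4 CpG (Hoxa9 and Hoxd4) to 45 CpG (Hoxa13), with a median of 17.5, where the window with the most CpG stood for a gene with several. Over the other genes of the tables the median was 15 CpG. It was 22 CpG in those that were detected and 4 CpG in those that were not. Of 7428 other genes with at least 17.5 CpG, 84.6% were detected, against 33.2% of the 9116 with fewer. Of the 11 Hox genes with at least 17.5 CpG, Hoxa3, Hoxa5, Hoxa6, Hoxa10, Hoxa13, Hoxd1, Hoxd3, Hoxd9, Hoxd10, Hoxd11 and Hoxd13, none was detected. The letters TATAAA, searched on both strands, stood in 4 of 24 Hox windows (16.7%; Hoxa10, Hoxb8, Hoxd4 and Hoxd13) and in 13.6% of all 32841 windows. The letters TGATNNAT, a form of the site that HOX and PBX proteins bind together, stood in 4 of 24 Hox windows (16.7%; Hoxa2, Hoxb1, Hoxb8 and Hoxd11) and in 8.85% of all windows. Both searches describe letters in these windows and say nothing of binding.

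**Figure D3:**
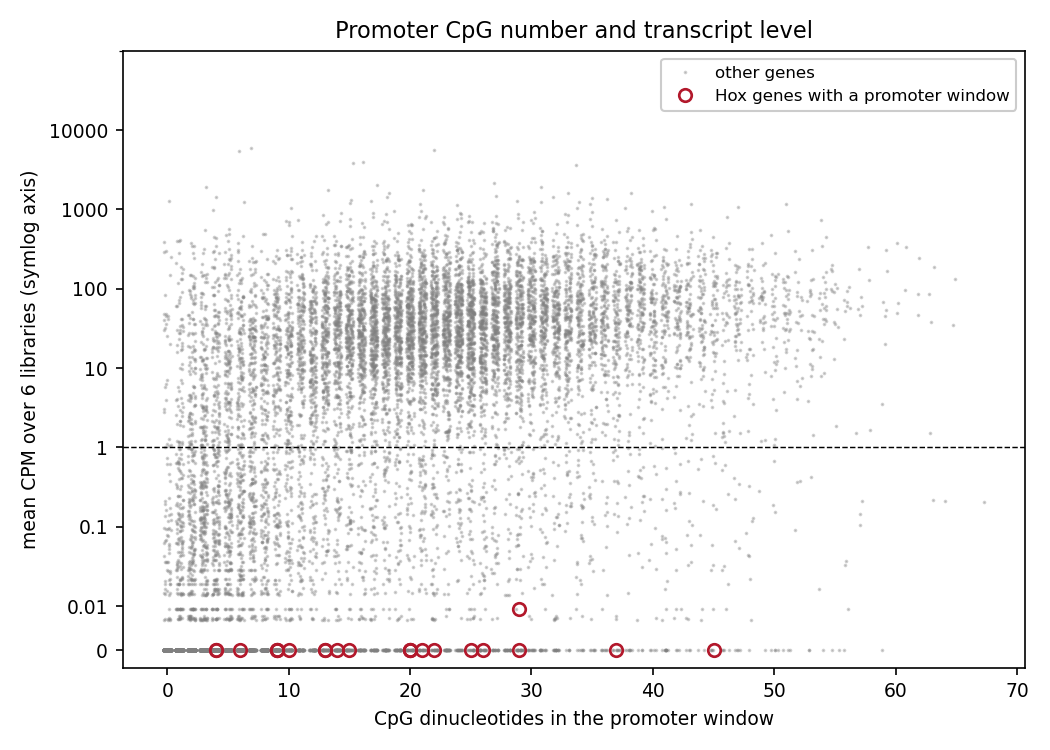
Number of CpG dinucleotides in the promoter window of a gene (horizontal axis, with points of other genes spread slightly sideways) against its mean CPM over the 6 libraries (vertical symlog axis), with the 22 Hox genes that have a window as red circles and other genes in grey; the dashed line is 1 CPM. Hox windows span 4 to 45 CpG, and every Hox gene shown lies at 0 except Hoxa5 with its 1 count.

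The cofactors of Hox proteins were present in the same libraries. Of 9 genes of the PBX, MEIS and PKNOX families 8 were detected, and Pknox2, with at most 0.282 CPM in any library, was not. Per kilobase of exon, the mean level of Pbx2 was 15.99 CPM in overexpressing organoids and 18.1 CPM in controls. Meis2 followed with 5.57 CPM in overexpressing organoids and 4.55 CPM in controls, per kilobase. Of the 8 tested genes 0 were called with or without the block, with a median log2 fold change of 0.09 with the block. Meis2 had 55.9, 62.6 and 82.7 CPM in Erbb2-overexpressing replicates 1, 2 and 3, against 39.4, 48.5 and 76.7 CPM in control replicates 1, 2 and 3. The groups overlapped, while the overexpressing library was the higher in each of the 3 pairs. In the blocked fit its log2 difference was 0.32 ± 0.10 (SE; edgeR adjusted p = 0.105), and without replicate 3 it was 0.44 with an adjusted p of 0.00158. Pbx2 had a log2 fold change of -0.18 and Pbx4 of 0.61 in the blocked fit, and edgeR gave them an adjusted p of 0.293 and 0.344 in that order.

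In the lists of ParaHox and Cdx genes and of the retinoic acid pathway 5 genes rose with the block, and each of them had an adjusted p of 0.9997 without it (edgeR). Over all genes, 298 of 12593 tested rose with the block (2.37%). Of the 6 ParaHox and Cdx genes Cdx1, Cdx4, Gsx1 and Gsx2 had 0 counts in all libraries, and the other 2 rose with the block. Cdx2, an intestinal factor, had 3.18, 2.44 and 5.16 CPM in Erbb2-overexpressing replicates 1, 2 and 3, against 0.278, 0.282 and 2.37 CPM in control replicates 1, 2 and 3. Its lowest overexpressing library lay just above the highest control, and both libraries of replicate 3 were the highest of their group. The log2 difference was 1.87 ± 0.40 (SE; adjusted p = 0.0274), and the adjusted p was 0.111 without replicate 1 and 0.0929 without replicate 2; without replicate 3 the log2 fold change was 3.32. Pdx1, a factor of the antrum, duodenum and pancreas, had 15.1, 13.7 and 46.0 CPM in the overexpressing libraries, against 4.63, 7.77 and 26.7 CPM in the controls. The groups overlapped, and the blocked fit gave a log2 difference of 1.03 ± 0.17 (SE; adjusted p = 0.00835).

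With the block 2.37% of all tested genes rose and 0.723% fell. Of 18 genes of the retinoic acid pathway 12 were tested, of which 3 rose and 0 fell with the block. Among them were Rdh10, whose enzyme oxidises retinol, at a log2 difference of 0.52 ± 0.09 (SE; adjusted p = 0.00690), and Aldh1a3, whose enzyme forms retinoic acid, at 0.94 ± 0.19 (SE; adjusted p = 0.0206). Rdh10 and Aldh1a3 missed the threshold without replicate 2 (adjusted p = 0.111 and 0.120). Aldh1a3 had 15.2, 12.3 and 14.9 CPM in Erbb2-overexpressing replicates 1, 2 and 3, against 10.6, 4.11 and 7.66 CPM in control replicates 1, 2 and 3, and the groups did not overlap. Rdh10 had 395, 318 and 524 CPM in the overexpressing libraries, against 302, 191 and 384 CPM in control libraries, with overlap between the groups. The receptor genes Rara, Rarb, Rarg, Rxra and Rxrb were not called, and Rxrg had no count; Rxra had a log2 fold change of -0.16 with the block (adjusted p = 0.412). Over the 12 genes the median was 0.07. Beside these rises, 9 markers of squamous epithelium, 4 of them detected, summed to 650 to 920 CPM in overexpressing libraries and 400 to 559 CPM in controls. The sum of 10 intestinal markers was 201 to 326 CPM in overexpressing libraries and 135 to 357 CPM in controls, with Cdx1, Fabp1 and Sis at 0. The part of either list in the rises was not tested.

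All 22 Polycomb group genes listed were detected and tested, and 0 were called with or without the block, with a median log2 fold change of -0.10 with the block. They include Ezh2, the histone methyltransferase of the complex, at 58.3 ± 6.15 CPM in overexpressing organoids and 65.3 ± 13.3 CPM in controls (SD, n = 3 each). Jarid2 had a log2 fold change of -0.29, Phc2 of 0.22, Rbbp4 of -0.15 and Bmi1 of -0.18 in the blocked fit, with an edgeR adjusted p between 0.156 for Jarid2 and 0.399 for Bmi1. Without replicate 3 Jarid2 had an adjusted p of 0.0150. Of 11 genes of the Trithorax group and the demethylases that oppose Polycomb 11 were detected and 0 were called, with a median of -0.05. Psip1 stood at -0.25, Dpy30 at -0.28, Ash2l at -0.17 and Men1 at -0.17 on the log2 scale in the blocked fit, where edgeR gave an adjusted p between 0.196 for Psip1 and 0.311 for Men1.

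**Figure D4:**
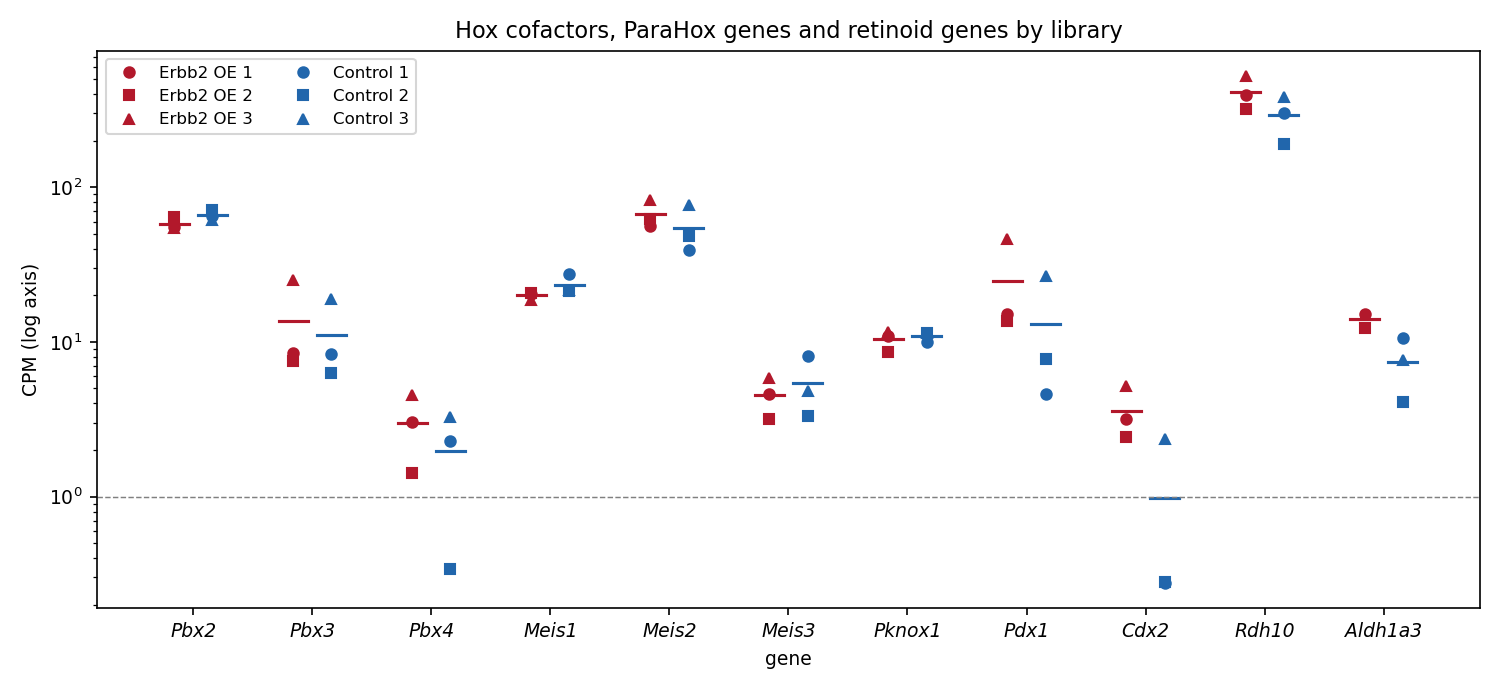
CPM (log axis) of Hox cofactors, ParaHox genes and retinoid genes in each library, with Erbb2-overexpressing libraries (Erbb2 OE) in red left of the controls in blue, a marker shape for each replicate number and a bar at the mean of each group. The Meis2, Cdx2 and Pdx1 values of replicate 3 lie above those of the other replicates in both groups.

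The libraries held the transcripts of gastric epithelium and almost none of fibroblasts and smooth muscle. Whether this bears on the Hox counts was not tested. Of 17 markers of gastric epithelium 16 were detected, with summed levels of 15460 to 16160 CPM in overexpressing libraries and 14200 to 16400 CPM in controls. The highest were Muc1, at a mean of 4906 CPM in overexpressing organoids and 5927 CPM in controls, and Krt19 and Cdh1. These 3 are genes of epithelia in general. In the same order Cldn18 had means of 874 and 515 CPM, Pgc 60.3 and 79.4 CPM, and Gkn2, which was not detected, 1.39 and 0.310 CPM. Of 13 markers of fibroblasts and smooth muscle 1 was detected, Col1a1, with a sum over the list of 1.70 to 2.38 CPM in overexpressing libraries and 0.901 to 2.19 CPM in controls. The fibroblast genes Col1a2, Dcn, Lum and Pdgfrb, the muscle gene Des and the stomach mesenchyme gene Barx1 had 0 counts in all 6 libraries. In bulk RNA fewer cells of a type and less RNA per cell cannot be told apart. Total counts ran from 18735853 to 22767455 per library. Erbb2 was at 325 ± 34.96 CPM in the overexpressing organoids and 139 ± 21.9 CPM in the controls (SD, n = 3 each), as the labels have it. Its groups did not overlap, and its log2 fold change was 1.23 in either fit. The edgeR adjusted p was 0.640 without the block and 3.55e-05 with it, so the main fit did not call Erbb2 itself.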

How the data were processed

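Polyadenylated RNA of 6 libraries was measured by sequencing. The deposited tables, 1 per library, hold unnormalised counts of reads for each Ensembl gene, per the file headers. The submitters' processing notes name STAR, featureCounts and GRCm39. Versions, annotation and strand setting were not given in the sources used here, so overlapping antisense genes cannot be told apart. Symbols were matched by Ensembl ID for 25424 of 25528 genes. Exon lengths, overlaps and gene order came from GENCODE M21 on an earlier assembly. Counts were tested with edgeR 4.0.16 in R 4.3.3 across all genes: filterByExpr (minimum count 10), TMM scaling, two-sided quasi-likelihood F test, Benjamini-Hochberg adjustment and a threshold of 0.05. Standard errors were obtained from the log2 fold change and its F statistic (change over root F). CPM use TMM-scaled library sizes. No tables were identical, and libraries within a group differed with chi-square values of 33.5 to 126 per degree of freedom. P-values measure the spread between libraries, which may be technical. In the blocked fit they measure the spread left after the replicate effect.

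Same-numbered libraries deviated together from their group means, with correlations across genes of 0.393, 0.725 and 0.750 for replicates 1, 2 and 3. Libraries of different number gave -0.703 to 0.136. Deviations within a group are not independent of each other, and neither are these correlations. The replicate number was read as a pairing on these values, while the labels give the numbers alone. The fit without the block was the main one, because the labels do not state that equal numbers mark a shared culture. Alternatives were other scalings, DESeq2 1.42.0, limma voom (limma 3.58.1), other filters, the block, left-out libraries and the earlier form of the fit. The script was checked on simulated counts. The Hox genes are named, with the related-list members of smallest p with the block, up to 4 a list, and any that passed; a few genes under this rule are not reported here. The Hox genes and all lists were chosen with earlier results of these data known.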

Additional observations from a re-analysis of the deposited data

How the results depend on the processing

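The number of Hox genes detected was 0 at 0.5, 1 and 2 CPM in 3 libraries, at 1 CPM in all 6 libraries or in any library, and with total counts, relative log expression or upper-quartile scaling. The number of Hox genes called was also 0 in each fit, but 0 Hox genes were tested in any fit that had a filter, so that this count says nothing of stability; fold changes of Hox genes have no value in those fits. Over all genes, where edgeR called 0 without the block, DESeq2 called 34. With the replicate block edgeR called 389, DESeq2 466 and limma voom 376, and edgeR with no filter on low counts, a choice made after the data were seen, 345. Leaving out 1 library without the block gave 0 to 1 calls, and leaving out a replicate number with the block gave 213 without replicate 1, 145 without replicate 2 and 1089 without replicate 3. Of the genes in the related lists, 0 were called without the block in each tool and filter. With the replicate block edgeR called 5, DESeq2 5, limma voom 4 and edgeR with no filter 5, and 4, 2 and 10 without replicates 1, 2 and 3. The cause of these differences was not tested. For counting error alone, the limit on Hox genes is set by depth: 3 counts per library, or 0.125 to 0.170 CPM. It does not cover reads withheld or split in counting, as can happen for the 6 Hox genes with an overlap above 25%.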

Other observations

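Other homeobox genes were looked up by symbol after the Hox values were seen, without the Hox cofactors and the ParaHox and Cdx genes. They came from families such as Irx, Nkx, Lhx, Onecut and Pou. The tables held 156 of them, of which 36 were detected (23.1%) and 83 had 0 counts in all 6 libraries. The most abundant was Onecut2, with 345, 474 and 122 CPM in Erbb2-overexpressing replicates 1, 2 and 3, against 658, 557 and 116 CPM in control replicates 1, 2 and 3. Both libraries of replicate 3 were the lowest of their group.

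Of 41 such genes tested, 0 rose and 2 fell with the replicate block, and 0 were called without it (edgeR). Over all tested genes the block gave 2.37% as higher and 0.723% as lower. Cdx2 and Pdx1, homeobox genes that rose with the block, are not in this set. The 2 genes that fell were members of the Iroquois family. Irx3 had 40.8, 43.6 and 25.4 CPM in Erbb2-overexpressing replicates 1, 2 and 3, against 62.3, 61.1 and 42.0 CPM in control replicates 1, 2 and 3. It was lower in the overexpressing library of each of the 3 pairs, by a log2 difference of -0.61 ± 0.09 (SE; adjusted p = 0.00508 with the block, and 0.9997 without it). For Irx5 the blocked fit gave a log2 difference of -0.57 ± 0.11 (SE; adjusted p = 0.0183), and its adjusted p was 0.181 without replicate 2. These genes were named because they were called.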
